A study of Homo sapiens with 6 samples.

Results

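The coactivators YAP1 and WWTR1 (TAZ), their DNA-binding partners TEAD1 and TEAD4, and the target and regulator genes CCN1, CCN2, ANKRD1, AMOTL2, LATS2 and AJUBA were followed in KYSE150 cells. They were taken from the deposited table by symbol, and all 10 were among its 60591 genes and passed the filter on low counts. KYSE150 is an established cell line from a human oesophageal squamous cell carcinoma. Cells of the 3 TPA libraries received the phorbol ester TPA, an activator of protein kinase C, at 10 ng/ml for 24 h after a night in serum-free medium. Cells of the 3 DMSO libraries, also serum-starved, received the solvent, for which the labels give no dose or time. All libraries come from this 1 line. Whether libraries of a group are separate cultures is not stated in the labels, and p-values here reflect the spread among these libraries alone, which may be technical.

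YAP1 and WWTR1 encode coactivators that do not bind DNA by themselves and reach their target genes through the TEAD transcription factors. The Hippo kinase cascade, which ends in LATS1 and LATS2, phosphorylates both coactivators and keeps them out of the nucleus, so transcript levels do not report how much of either protein is active. In stratified squamous epithelia YAP is known for promoting growth of the basal layer. CCN1, CCN2 and ANKRD1 are widely used target genes of YAP and TEAD. AMOTL2 and LATS2 are targets that in turn restrain YAP, and AJUBA is a LIM scaffold protein that binds and inhibits LATS kinases.

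Windows from 250 bases before to 50 bases after a gene start, from RefSeq on GRCh38.p14, were held for 7 of the 10 members. They were YAP1, WWTR1, CCN2, ANKRD1, AMOTL2, LATS2 and AJUBA, with 10 windows in all, since some genes have several starts. The TEAD core GGAATG, searched on both strands (CATTCC on the other strand), was present in 6 of these windows, 1 for each member but WWTR1. It was present in 14% of all 35116 windows of that length. The members were chosen as genes of this pathway, some as known TEAD targets, so a higher share among them is not a finding of these data. CCN1 was among the members without a window. The AP-1 site was searched as TGANTCA, with any base at N, a pattern that covers both strands and does not overlap the TEAD core. It was present in the ANKRD1 window alone among the 10, as TGATTCA, against 7.71% of all windows. Below are the windows of CCN2, with 3 TEAD cores, of ANKRD1, with 2 TEAD cores and 1 AP-1 site, and of AMOTL2, with 1 TEAD core on the other strand. They are shown because CCN2 and ANKRD1 had ratios of opposite sign in different pairs of libraries, whereas AMOTL2 had the same sign in every pair. AJUBA, with 1 TEAD core and not shown, also had ratios of both signs. YAP1 and LATS2, with 1 core each and not shown, had the same sign in every pair. The other AMOTL2 window held no core. Whether the motifs go with the ratios was not tested. Capitals mark the TEAD cores and the AP-1 site.
CCN2 (chr6:131951323-131951622, minus strand): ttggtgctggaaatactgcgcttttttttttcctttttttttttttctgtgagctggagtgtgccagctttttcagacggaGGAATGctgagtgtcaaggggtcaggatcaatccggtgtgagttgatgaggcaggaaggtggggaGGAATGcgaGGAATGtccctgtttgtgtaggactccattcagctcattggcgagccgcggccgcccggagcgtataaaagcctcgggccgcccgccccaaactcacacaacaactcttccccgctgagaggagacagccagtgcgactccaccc
ANKRD1 (chr10:90921038-90921337, minus strand): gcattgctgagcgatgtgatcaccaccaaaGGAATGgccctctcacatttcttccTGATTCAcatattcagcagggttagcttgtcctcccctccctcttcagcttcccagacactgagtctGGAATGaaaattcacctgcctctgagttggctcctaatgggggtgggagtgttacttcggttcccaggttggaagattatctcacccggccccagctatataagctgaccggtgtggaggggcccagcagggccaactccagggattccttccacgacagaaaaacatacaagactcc
AMOTL2 (chr3:134374398-134374697, minus strand): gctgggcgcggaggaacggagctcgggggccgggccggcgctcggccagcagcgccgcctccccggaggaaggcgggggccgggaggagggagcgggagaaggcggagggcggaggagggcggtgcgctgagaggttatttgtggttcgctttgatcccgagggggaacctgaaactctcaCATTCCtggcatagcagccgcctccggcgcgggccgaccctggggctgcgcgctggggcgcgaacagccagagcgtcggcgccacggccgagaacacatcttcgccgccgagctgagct
In CCN2 the TEAD cores begin at positions -169, -104 and -95 from the gene start. In ANKRD1 they begin at -220 and -128 and the AP-1 site at -195, and in AMOTL2 the core begins at -69. A match in these letters is a description and not a measured binding site.

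The libraries held 27702329 to 33965547 counts, and values below are CPM, the counts scaled to a common depth by trimmed mean of M values (TMM). TPA 2 and TPA 3 stood apart from the other 4 libraries on the first principal component of log2 CPM (57.3% of the variance), and TPA 1 stood apart on the second (31.8%). Libraries with the same number deviated together from their group means, with correlations across genes of 0.55, 0.34 and 0.37. The correlation was as high between TPA 2 and DMSO 3 (0.374) and between TPA 3 and DMSO 2 (0.356), so numbers 2 and 3 were not told apart. A pair below is the TPA and the DMSO library of 1 number. The 7 squamous epithelial markers were all detected, with sums of 944 to 2814 CPM in TPA and 1585 to 3638 CPM in DMSO, lowest in the library numbered 1 of each group. KRT5, the basal keratin gene, had 66.7, 490.5 and 509 CPM in TPA 1, 2 and 3, and 428, 1736 and 1780 CPM in DMSO 1, 2 and 3. The markers did not share a direction. KRT14, the other basal keratin gene, had 6.05, 36.7 and 35.7 CPM in TPA, and 6.45, 19.3 and 18.3 CPM in DMSO, and KRT6A, SFN and ITGB4 were also higher in TPA 2 and TPA 3 than in DMSO 2 and DMSO 3. Leukocyte markers summed to at most 1.70 CPM in TPA and 4.03 CPM in DMSO, and endothelial markers to at most 2.25 and 2.93 CPM. Among fibroblast markers DCN was at 0 in every library and COL1A1, at 2.90 to 10.4 CPM in TPA and 5.10 to 12.1 CPM in DMSO, made up nearly all of the sum. The part of these differences in the results below was not tested. In bulk RNA, fewer cells of a type and less RNA per cell cannot be told apart.

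CCN1 was the 1 member that passed, higher in TPA, while 0 members passed as lower (edgeR's quasi-likelihood test, Benjamini-Hochberg adjusted p under 0.05 over 21825 genes). Over all genes tested, 0.861% passed as higher and 0.394% as lower. At an unadjusted p under 0.05 there were 5 of the 10 members (CCN1, AMOTL2, LATS2, TEAD4 and YAP1), against 22.1% of all genes. DESeq2 called 3 members higher and 0 lower, where it called 7.80% and 4.19% of all genes, and limma-voom called 1 and 0, where it called 1.13% and 0.596%. The TPA and DMSO values did not overlap for the same 5 genes, 4 of them higher and YAP1 lower, where 14.3% of all genes were higher and 15.2% lower without overlap. The coactivator genes and TEAD1 had negative fitted changes and TEAD4 and most targets positive ones. The sign was the same in all 3 pairs for 6 members, against 52.2% of all genes. With the replicate number as a block, CCN1 and AMOTL2 passed as higher and 0 members as lower, where 4.58% and 6.52% of all genes passed.

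**Figure D1:**
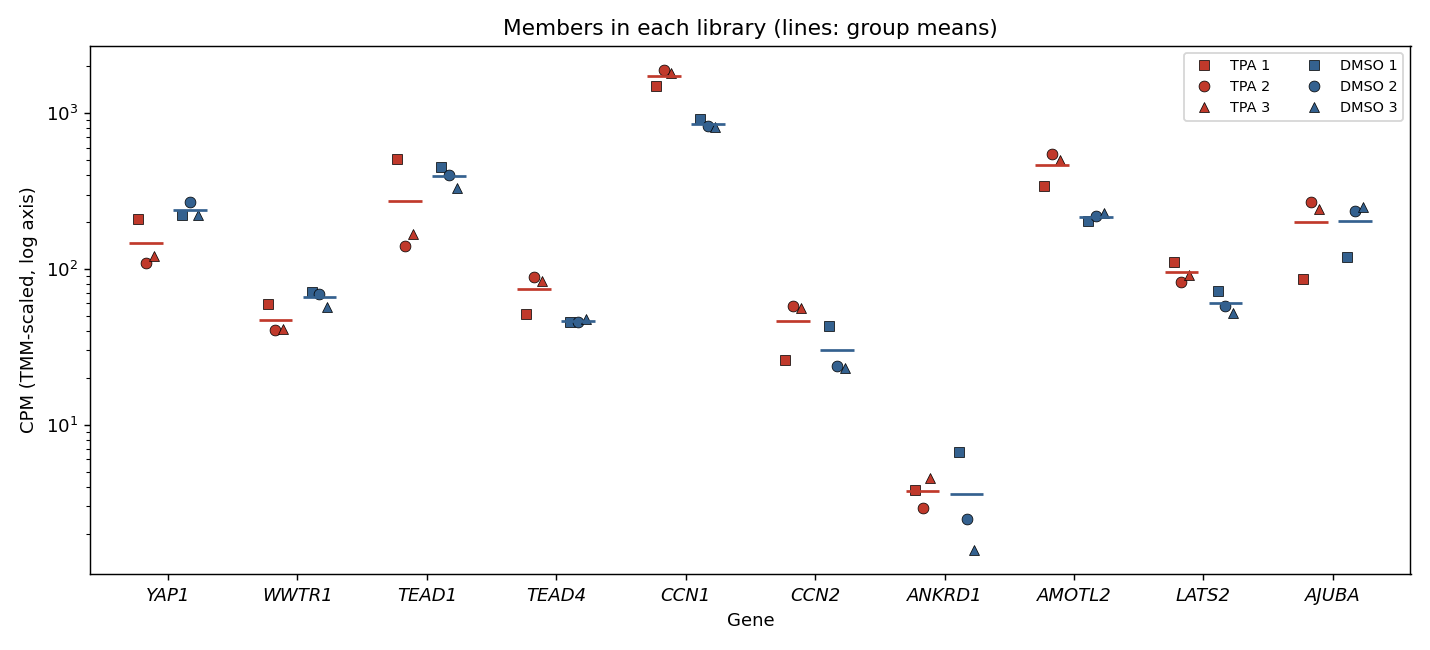
CPM (log axis) of the 10 members in each of the 6 libraries, TPA in red left of DMSO in blue, with the symbol giving the library number and the line the group mean. CCN1 sat at 1503 to 1895 CPM in TPA and 812 to 920.4 CPM in DMSO, while the TEAD1 values of TPA 2 and TPA 3 lay far below that of TPA 1.

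YAP1 (chromosome 11, 102110461 to 102233423, plus strand, GRCh38) had 210.2, 109.8 and 122 CPM in TPA 1, 2 and 3, and 223, 269 and 221 CPM in DMSO 1, 2 and 3. Every TPA value was below every DMSO value, but TPA 1 lay only just below DMSO 3. The means were 147 ± 54.9 CPM in TPA and 238 ± 27.1 CPM in DMSO (SD, n = 3 each). The fitted log2 fold change, -0.69 ± 0.29 (SE), did not pass (adjusted p = 0.215, edgeR). Its pairs had log2 ratios of -0.08, -1.29 and -0.86. WWTR1, the YAP1 paralog (chromosome 3, 149517235 to 149736714, minus strand), had 59.3, 40.7 and 41.1 CPM in TPA, and 70.9, 68.6 and 57.3 CPM in DMSO. TPA 2 and TPA 3 were below all DMSO libraries and TPA 1 lay within their range. Its log2 fold change was -0.48 ± 0.24 (adjusted p = 0.287, edgeR), with pairs at -0.26, -0.75 and -0.48. WWTR1 passed as lower when each library's trend on GC content was removed and the block was kept (-0.83, adjusted p = 0.0368), a fit in which 10.5% of all genes were lower. Per kilobase of exon, YAP1 was above WWTR1 by 3.61 to 4.74 times in TPA and by 4.20 to 5.24 times in DMSO.

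The TEAD genes, which encode the DNA-binding partners, had ratios of opposite sign in pairs 2 and 3 and neither passed. TEAD1 (chromosome 11, 12674591 to 12944483, plus strand) had 507, 140.0 and 168 CPM in TPA 1, 2 and 3, and 452, 402 and 331 CPM in DMSO 1, 2 and 3. TPA 1 was the highest of the 6 libraries, and TPA 2 and TPA 3 were the lowest. The log2 fold change was -0.54 ± 0.48 (adjusted p = 0.538, edgeR), and the pairs were at 0.16, -1.52 and -0.97. TEAD4 (chromosome 12, 2959330 to 3040673, plus strand) had 51.3, 88.2 and 83.3 CPM in TPA, and 45.9, 45.9 and 47.5 CPM in DMSO. All TPA values were above all DMSO values, with TPA 1 nearest to them. Its log2 fold change of 0.68 ± 0.26 did not pass (adjusted p = 0.182, edgeR), with pairs at 0.16, 0.94 and 0.81. The level of TEAD1 over that of TEAD4, both per kilobase of exon, was 2.18, 0.351 and 0.447 in TPA 1, 2 and 3, and 2.18, 1.94 and 1.54 in DMSO 1, 2 and 3. Per kilobase of exon TEAD4 was thus the higher of these 2 in TPA 2 and TPA 3, and TEAD1 in the other 4 libraries. In CPM TEAD1 was above TEAD4 in every library. This order rests on annotated exon lengths of 10.3 kb for TEAD1 and 2.27 kb for TEAD4, and which transcripts were expressed was not measured. The genes also differ in GC content (46.1% and 64.1%), which ratios in pairs 2 and 3 followed over all genes (below).

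**Figure D2:**
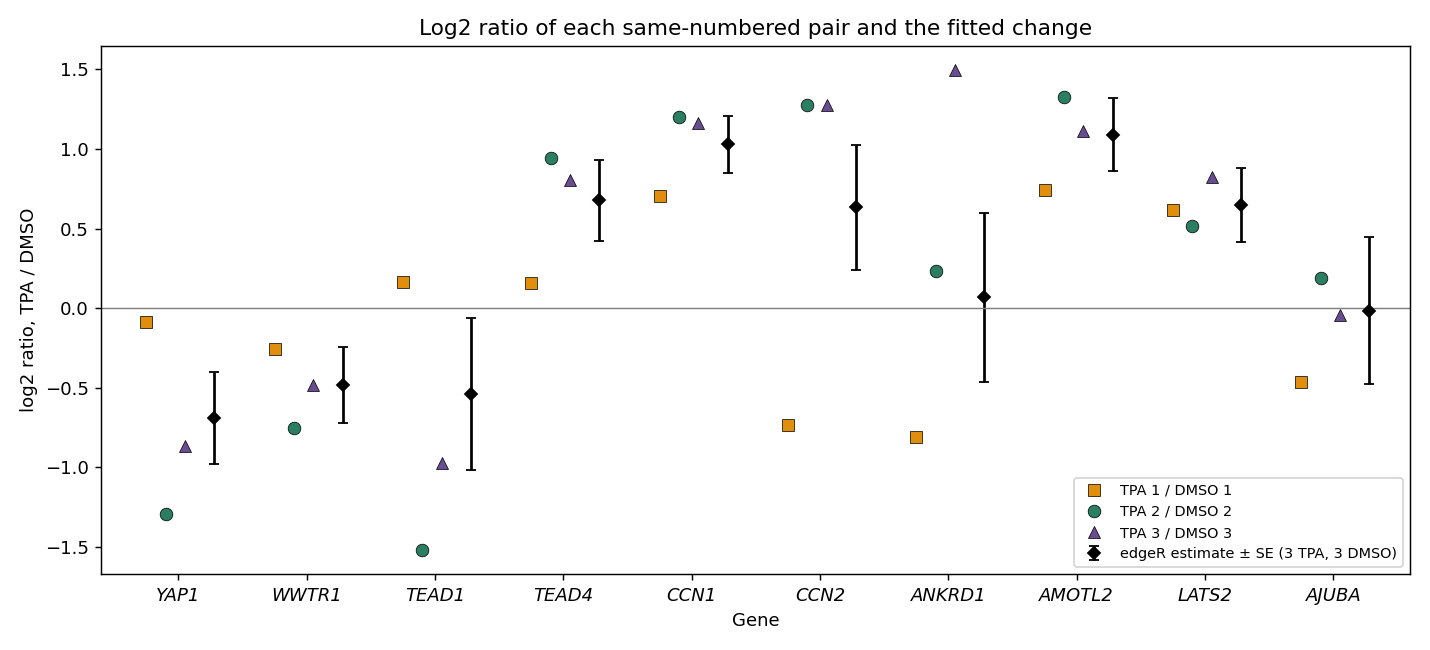
Log2 ratio of TPA to DMSO for each same-numbered pair (coloured symbols) and the edgeR estimate over all 6 libraries with its SE (black diamonds), for each member. CCN1, AMOTL2, LATS2 and TEAD4 were above 0 in every pair and YAP1 and WWTR1 below 0, while CCN2 stood at -0.73 in pair 1 and at 1.27 and 1.28 in pairs 2 and 3.

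CCN1 (also CYR61), a secreted matricellular protein gene (chromosome 1, 85580761 to 85583962, plus strand), had 1503, 1895 and 1818 CPM in TPA 1, 2 and 3, and 920.4, 823 and 812 CPM in DMSO 1, 2 and 3. Every TPA library was above every DMSO library. CCN1 rose 2.04-fold, a log2 fold change of 1.03 ± 0.18 (adjusted p = 0.0487, edgeR), with pairs at 0.71, 1.20 and 1.16. The call did not hold without any 1 of TPA 2, TPA 3, DMSO 1, DMSO 2 and DMSO 3 (adjusted p 0.0713 to 0.330), and did without TPA 1 (0.00041). Over all genes, the former fits called 24, 2, 101, 0 and 0 genes higher in that order, and the fit without TPA 1 called 5577 (24.6%). After the GC correction the estimate was 0.66, with an adjusted p of 0.0642 without the block and 0.0127 with it.

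CCN2 (also CTGF), a matricellular gene of the same family (chromosome 6, 131948176 to 131951373, minus strand), had 25.8, 58.1 and 55.9 CPM in TPA 1, 2 and 3, and 43.1, 24 and 23 CPM in DMSO 1, 2 and 3. TPA 2 and TPA 3 were above every DMSO library, whereas TPA 1 was below DMSO 1, so the groups overlapped. The log2 fold change was 0.64 ± 0.39 (adjusted p = 0.381, edgeR), from pairs at -0.73, 1.27 and 1.28. The level of CCN1 over that of CCN2, per kilobase of exon, was 55.4, 31.1 and 31.0 in TPA 1, 2 and 3, and 20.4, 32.7 and 33.6 in DMSO 1, 2 and 3. This ratio differed between the groups in the pair numbered 1 and was close in the others. ANKRD1, which encodes a muscle ankyrin-repeat protein (chromosome 10, 90912096 to 90921276, minus strand), was low throughout, with 105, 87 and 139 counts in TPA and 204, 81 and 48 counts in DMSO. These were 3.81, 2.92 and 4.53 CPM in TPA, and 6.71, 2.47 and 1.56 CPM in DMSO. DMSO 1 was the highest library and DMSO 3 the lowest, so the groups overlapped fully. The log2 fold change was 0.07 ± 0.53 (adjusted p = 0.951, edgeR), with pairs at -0.81, 0.24 and 1.5, and its sign turned with the scaling or filter.

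AMOTL2, an angiomotin family gene whose protein binds YAP at junctions (chromosome 3, 134355874 to 134375479, minus strand), had 341, 546 and 498 CPM in TPA 1, 2 and 3, and 203, 217 and 229.8 CPM in DMSO 1, 2 and 3. Every TPA library exceeded every DMSO library. The log2 fold change of 1.09 ± 0.23 did not pass in the comparison of 3 with 3 libraries (adjusted p = 0.0651, edgeR), with pairs at 0.74, 1.33 and 1.12. With the replicate block it did (1.06, adjusted p = 0.0227), and after the GC correction it was 0.72 and passed without and with the block (0.0286 and 0.0102). It was then the 1 member called without the block, as higher, where 3.14% of all genes were called higher and 2.78% lower. LATS2, a kinase that phosphorylates YAP (chromosome 13, 20973032 to 21061547, minus strand), had 111, 82.4 and 91.8 CPM in TPA, and 72.5, 57.5 and 51.8 CPM in DMSO. The groups did not overlap, and TPA 1 and DMSO 1 were the highest of their groups. The log2 fold change was 0.65 ± 0.23 (adjusted p = 0.163, edgeR), with the pairs at 0.61, 0.52 and 0.83.

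AJUBA, the scaffold gene (chromosome 14, 22971174 to 22982642, minus strand), had 86.3, 270.0 and 243 CPM in TPA 1, 2 and 3, and 119, 237 and 249 CPM in DMSO 1, 2 and 3. Both libraries numbered 1 were far below the other 4, and the groups overlapped fully. The log2 fold change was -0.02 ± 0.46 (adjusted p = 0.988, edgeR), and the scaling set its sign (0.11 with median-ratio factors and -0.29 with library size alone).

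Levels per kilobase of exon placed CCN1 far above the other members in both groups, at 708 CPM per kilobase in TPA and 347 in DMSO, with no overlap with the next gene. In TPA AMOTL2 came next (77.1), again without overlap with its neighbour. AJUBA, TEAD4, TEAD1, YAP1, CCN2 and LATS2 followed at means of 33.4 down to 17.1, each with a range that overlapped that of its neighbour. In DMSO TEAD1, YAP1, AMOTL2, AJUBA and TEAD4 followed CCN1 at 38.4 down to 20.4 with overlapping ranges, and then CCN2 and LATS2 at 12.8 and 10.9. WWTR1, at 5.59 in TPA and 7.80 in DMSO, and ANKRD1, at 1.90 in TPA and 1.81 in DMSO, were the lowest members.

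By the root mean square difference of centred log2 CPM over the 6 libraries, YAP1 and WWTR1 were each other's nearest member (0.20), as were CCN1 and AMOTL2 (0.15). Neither likeness was particular to the members. Among 8458 protein-coding genes with an average log2 CPM of at least 4, 490 lay closer to YAP1 than WWTR1 did and 332 closer to CCN1 than AMOTL2 did. The genes nearest to YAP1 were NSD1 (0.029), ITGA6 (0.046) and SFT2D2 (0.052). Those nearest to CCN2 were PWP2 (0.11), PER1 (0.16) and PIM1 (0.19), all with a negative ratio in pair 1 and a positive one in pairs 2 and 3.

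Ratios of TPA to DMSO in pairs 2 and 3 also followed the GC content of transcripts over all genes. Over 10 bins of expressed genes by GC content, the bin with the lowest content had a median log2 ratio of -0.91 in these pairs and the bin with the highest had 0.56, while in pair 1 these medians were 0.12 and -0.07. TEAD4 (64.1% GC) and LATS2 (59.3%) had mean ratios of 0.87 and 0.67 in pairs 2 and 3, beside medians of 0.56 and 0.57 for their bins. CCN1 (57.2%) and AMOTL2 (63.1%) had 1.18 and 1.22, beside 0.57 and 0.56. YAP1 (47.1%) and TEAD1 (46.1%) had -1.08 and -1.25, beside a median of -0.27 for the bin they share. CCN2 (51.5%) and AJUBA (52.0%) had 1.28 and 0.07, beside 0.34 for the bin they share. WWTR1 and ANKRD1 had the sign opposite to the median of their bin, WWTR1 (53.7%) with -0.62 where its bin had 0.50, and ANKRD1 (43.3%) with 0.87 where its bin had -0.69. In the fit with the GC correction and the block, CCN1 and AMOTL2 passed as higher and WWTR1 as lower, where 9.11% and 10.5% of all genes passed. The other members did not pass in that fit (edgeR). AJUBA had -0.38 (adjusted p = 0.0502), YAP1 -0.65 (0.0542), TEAD4 0.30 (0.0715), TEAD1 -0.58 (0.12), LATS2 0.29 (0.221), ANKRD1 0.72 (0.380) and CCN2 0.37 (0.461).

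**Figure D3:**
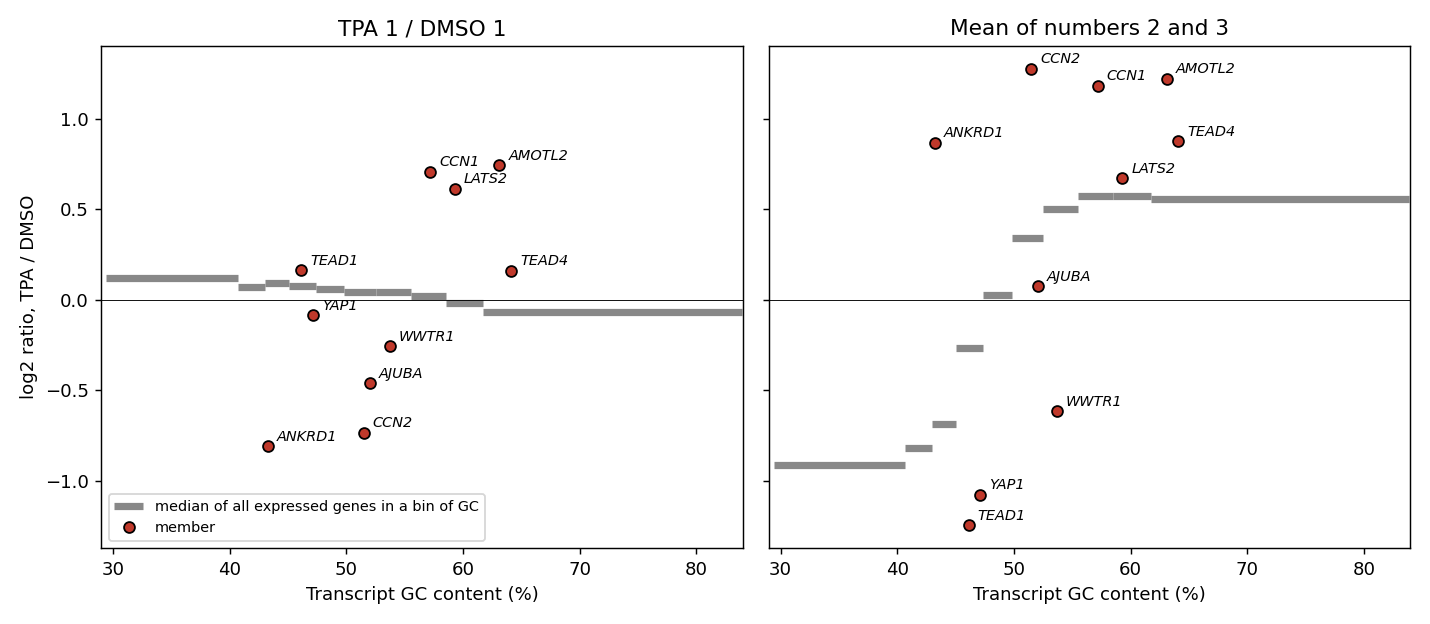
Log2 ratio of TPA to DMSO against transcript GC content (%) for the members (red points), with grey bars for the median of all expressed genes in each of 10 bins of GC content, in pair 1 (left) and as the mean of pairs 2 and 3 (right). The grey medians run from -0.91 to 0.57 in pairs 2 and 3 and stay between -0.07 and 0.12 in pair 1.

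Without both libraries numbered 1, which leaves 2 close libraries against 2, all 10 members passed, 7 higher and 3 lower. In that fit 65.5% of all genes passed, 32.2% higher and 33.3% lower. YAP1 (-0.93), WWTR1 (-0.47) and TEAD1 (-1.09) were lower, and CCN2 (1.43), AMOTL2 (1.38), CCN1 (1.34), ANKRD1 (1.04), TEAD4 (1.03), LATS2 (0.83) and AJUBA (0.23) were higher. Without TPA 1 alone 5 members were higher and 3 lower, against 24.6% and 27.8% of all genes. The sign in pair 1 was opposite to the mean of pairs 2 and 3 for 4 members (TEAD1, CCN2, ANKRD1 and AJUBA), against 41.0% of all genes.

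Other genes of the pathway were set out in 6 lists of 71 genes, of which 70 were found in the table by symbol. The list counts below stand beside these shares of all genes. In edgeR 0.861% passed as higher and 0.394% as lower, and 22.1% had an unadjusted p under 0.05. DESeq2 called 7.80% higher and 4.19% lower, limma-voom 1.13% and 0.596%, and the fit with the block 4.58% and 6.52%. Of 18 Hippo kinase core genes tested, 0 passed in either direction (3 had an unadjusted p under 0.05, and DESeq2 called 2 higher), with a median log2 fold change of -0.13 beside -0.11 for all genes. WWC1 (KIBRA), an upstream activator of LATS kinases, had 385, 481 and 469 CPM in TPA, and 261, 222 and 235 CPM in DMSO. Its log2 fold change of 0.89 ± 0.19 (adjusted p = 0.0660, edgeR) passed with the replicate block (0.0405). LATS1, the other LATS kinase gene, named here after its values were seen, had 106, 29.5 and 30.8 CPM in TPA, and 113, 81.9 and 71.1 CPM in DMSO (log2 -0.68 ± 0.52, adjusted p = 0.474). TPA 2 and TPA 3 were below all DMSO libraries and TPA 1 was not, whereas for LATS2 every TPA value was above every DMSO value. LATS1 and LATS2 also differ in GC content (44.6% and 59.3%), which ratios in pairs 2 and 3 followed over all genes (above). Other genes of this list shared the LATS1 pattern, among them MOB1A, MOB1B and TAOK1, also named after their values were seen.

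Of 4 tested TEAD partners and paralogs 0 passed (1 had an unadjusted p under 0.05, and DESeq2 called 1 higher), with a median of 0.42. VGLL4, a TEAD cofactor that competes with YAP, had 70.9, 83.6 and 80.9 CPM in TPA, and 43.4, 52.2 and 47.6 CPM in DMSO, a log2 fold change of 0.72 ± 0.20 (adjusted p = 0.101, edgeR). Its pairs were alike, at 0.71, 0.68 and 0.76. TEAD2 had 11.8, 32.4 and 29.8 CPM in TPA, and 17.9, 32.0 and 29.9 CPM in DMSO, and TEAD3 15.4, 40.2 and 36.6 CPM in TPA, and 22.2, 33.4 and 28 CPM in DMSO. Both, named here after their values were seen, had their lowest value in TPA 1, and neither passed (adjusted p = 0.894 and 0.848, edgeR). With the GC correction and the block TEAD2 passed as lower (log2 -0.56, adjusted p = 0.0217) and TEAD3 did not pass (0.116).

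Of 12 tested junction and scaffold regulators 0 rose, 1 fell and 11 did not pass, with a median of 0.10, 5 genes at an unadjusted p under 0.05, and 2 called higher and 2 lower by DESeq2. FAT4, an atypical cadherin upstream of the Hippo kinases, had 28.7, 19.3 and 20 CPM in TPA, and 52.1, 103 and 88.2 CPM in DMSO. It fell by 1.84 ± 0.32 on the log2 scale (adjusted p = 0.0487, edgeR) and did not pass without any 1 of TPA 2, TPA 3, DMSO 1, DMSO 2 and DMSO 3. Over all genes, those fits called 1, 0, 38, 0 and 0 genes lower in that order. With the block, 1 gene of the list was higher and 2 were lower, where 4.58% and 6.52% of all genes were. AMOTL1, the AMOTL2 paralog, named here after its values were seen, had 830.4, 837 and 898 CPM in TPA, and 523, 547 and 511 CPM in DMSO (log2 0.70 ± 0.17, adjusted p = 0.0747, edgeR). FAT1 (log2 -1.15, adjusted p = 0.0651) and CRB3 (1.13, 0.0691), also named after their values were seen, had lower p-values in this list. Both passed with the block (0.0246 and 0.0279) and AMOTL1 did not (0.0691).

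Of 15 tested further YAP and TEAD target genes 0 rose, 1 fell and 14 did not pass, with a median of 0.12, 6 genes at an unadjusted p under 0.05, and 3 called higher and 1 lower by DESeq2. TGFB2, a TGF-beta ligand gene, had 30.3, 34.1 and 30.5 CPM in TPA, and 147, 222 and 194 CPM in DMSO (log2 -2.57 ± 0.24, adjusted p = 0.0202, edgeR). It lay on the side opposite to CCN1 in every pair, and did not pass without any 1 of TPA 3, DMSO 2 and DMSO 3. Those fits called 0 of all genes lower, so not passing there was not particular to TGFB2. NUAK2, a kinase gene named here after its values were seen, had 39.3, 69.5 and 67.0 CPM in TPA, and 26.2, 23.4 and 24.4 CPM in DMSO. Its log2 fold change of 1.25 ± 0.27 (adjusted p = 0.0676, edgeR) passed with the block (0.0213).

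In the CCN family 2 of 4 further genes were tested and 0 passed (0 at an unadjusted p under 0.05, and 0 with DESeq2 and limma-voom). CCN4 stayed below 1 CPM in every library, at 0.689, 0.403 and 0.457 CPM in TPA, and 0.889, 0.122 and 0.130 CPM in DMSO (adjusted p = 0.763, edgeR). Of 10 tested MRTF and SRF genes, a further actin-dependent program that shares CCN1 as a known target, 0 passed (2 at an unadjusted p under 0.05, 0 with DESeq2 and limma-voom), with a median of -0.28. ACTA2, the smooth muscle actin gene, had 3.15, 4.67 and 4.53 CPM in TPA, and 5.46, 10.3 and 9.02 CPM in DMSO. Its log2 fold change of -1.0 ± 0.32 did not pass (adjusted p = 0.130, edgeR), but did with the block (0.0330). The fit with the block called 2 of these genes lower and 0 higher, where 6.52% and 4.58% of all genes were. With the GC correction and the block 6 were lower and 0 higher, with a median of -0.52, where 10.5% of all genes were lower, 9.11% were higher and the median was -0.14. Without both libraries numbered 1 the list was split, with 4 higher and 3 lower and a median of 0.06. In that fit 32.2% of all genes were higher and 33.3% lower.

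**Figure D4:**
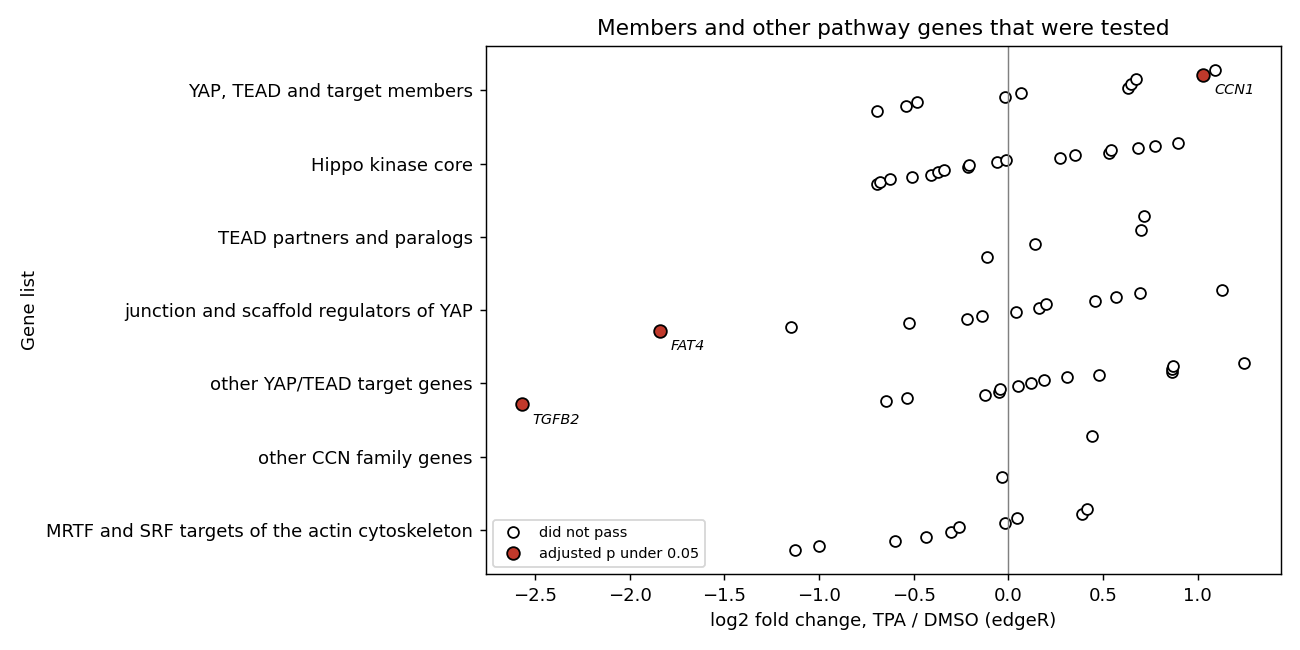
Log2 fold change (TPA over DMSO, edgeR) of each tested gene, 1 row of points per list, with filled red points for an adjusted p under 0.05. CCN1 (1.03), FAT4 (-1.84) and TGFB2 (-2.57) are the 3 filled points.

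Exons of YAP1, WWTR1, CCN2, AMOTL2 and AJUBA overlap exons of another annotated gene. The largest count of such a gene was 49, for WWTR1-AS1 in TPA 2, beside 1210 counts of WWTR1 there. Such counts do not measure the reads that lie in the overlap, and how these reads were assigned is not stated. For AMOTL2 and AJUBA the other gene lies on the same strand, so strand could not separate reads of the overlap. For YAP1, WWTR1 and CCN2 it lies on the opposite strand, and without a stated strand setting these reads cannot be told apart.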

How the data were processed

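Total RNA of KYSE150 cells was sequenced in 3 TPA and 3 DMSO libraries. The deposited table holds raw read counts per gene symbol, 1 column per library, which the authors did not normalize. Per the submitters' processing notes, the tools were HISAT2 2.1.0 and HTSeq 0.12.4, and the builds named are hg38 and GRCh38. For the annotation release and strand setting, nothing is stated in the sources used here. The control columns were assigned to the DMSO samples by number. Of the columns 0 were unmapped, and 0 rows named no gene.

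TPA was compared with DMSO over the whole table by edgeR 4.0.16 (R 4.3.3; TMM factors, filterByExpr, quasi-likelihood F-test, group as the only term), with Benjamini-Hochberg adjustment over 21825 genes. SE is the log2 fold change divided by the square root of F. Pair ratios are differences of log2 CPM with a prior count of 2. Library totals of 27702329 to 33965547 let a count of 0 (floor of 3 counts) stand for up to 0.109 CPM. Such floors cover counting error only. DESeq2 1.42.0 and limma 3.58.1 (voom) were alternatives.

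Libraries were paired by their numbers, and the deviations of same-numbered libraries correlated at 0.55, 0.34 and 0.37. Deviations from a mean of 3 libraries cancel out within a group. A deviation shared by both libraries numbered 1 therefore raises the values of numbers 2 and 3 as well, which are no separate evidence of pairing. No label states a shared culture or day. Crossed pairs of numbers 2 and 3 correlated as highly (0.356 and 0.374), so those numbers are not told apart. The group-only and block fits were tested on simulated counts. These had no deviating library, no shared number effect and no GC trend, so the test does not cover those features or the GC correction. Coordinates, exon lengths and transcript GC content came from GENCODE 29 (GRCh38), matched by current symbol for 37725 symbols and by that release's symbol for 18784. For the GC correction, a robust spline (5 df) on GC content was fitted to the deviation of log2 CPM from its mean in each library, over genes with an average log2 CPM over 2. The trend entered as an offset and left 21021 genes.

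The members, lists and alternatives were chosen with earlier results of these data known. Named genes were all members and, per list, up to 4 genes that passed or else the gene with the lowest p, plus the 3 nearest to YAP1 and to CCN2 by root mean square difference. Genes named after their values were seen are marked as such.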

Additional observations from a re-analysis of the deposited data

How the results depend on the processing

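Under the 18 alternatives the log2 fold changes of YAP1 (-0.93 to -0.51), WWTR1 (-0.83 to -0.37), TEAD1 (-1.25 to -0.22), TEAD4 (0.30 to 1.03), CCN1 (0.66 to 1.34), CCN2 (0.33 to 1.43), AMOTL2 (0.72 to 1.38) and LATS2 (0.29 to 0.83) kept their sign, and those of ANKRD1 and AJUBA did not. ANKRD1 had -0.17 with library size only, -0.0019 with the filter at 1 CPM, -0.08 without TPA 3, -0.13 without DMSO 2 and -0.28 without DMSO 3, with a highest value of 0.90 (without DMSO 1) when 1 library was left out. AJUBA had 0.11 with RLE factors, 0.013 with upper-quartile factors, 0.10 without a filter, 0.11 with DESeq2, 0.46 without TPA 1, 0.13 without DMSO 2, 0.18 without DMSO 3 and 0.23 without both libraries numbered 1. None of these passed except the last (adjusted p = 0.0221). The causes were not tested.

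The count of members called higher was 1, and it was 0 with upper-quartile factors, with library size only, without a filter and at an adjusted p under 0.01, 3 with DESeq2, 2 with the replicate block, 2 with the GC correction and the block, and 7 without both libraries numbered 1. It ran from 0 to 5 when 1 library was left out. With RLE factors, the 1 CPM filter, limma-voom and the GC correction without the block it was 1 (AMOTL2 in the last). The count called lower was 0, and it was 1 with the GC correction and the block, 3 without both libraries numbered 1, and 0 to 3 when 1 library was left out. Of the members, the block alone changed the call of AMOTL2 only.

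Over all genes 188 were higher and 86 lower. These were 429 and 202 without a filter, 1702 and 915 with DESeq2, 1000 and 1423 with the replicate block, 661 and 585 with the GC correction, 1914 and 2199 with the GC correction and the block, and 7216 and 7475 without both libraries numbered 1. They were 126 and 219 with library size only (a median log2 fold change of -0.36, against -0.11 and, with RLE factors, -0.01), 247 and 130 with limma-voom, and 0 and 0 at 0.01. They were 5577 and 6297 without TPA 1, 24 and 1 without TPA 2, 2 and 0 without TPA 3, 101 and 38 without DMSO 1, and 0 and 0 without DMSO 2 or DMSO 3 (2612 and 2745 genes at an unadjusted p under 0.05). Over all alternatives the counts called higher and lower ran up to 5 and 10 in the Hippo kinase core, 2 and 1 among TEAD partners, 5 and 6 among junction regulators, 7 and 5 among further targets, 1 and 0 in the CCN family and 4 and 6 among MRTF and SRF genes, and down to 0 in each. These maxima were reached without both libraries numbered 1, where 18, 4, 13, 15, 2 and 11 genes of the lists were tested. In that fit 32.2% of all genes were higher and 33.3% lower. The lower counts of TEAD partners and of MRTF and SRF genes were exceptions. They came from the GC correction with the block, where 10.5% of all genes were lower. ANKRD1 had the lowest counts of the members, 48 to 204 a library.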
